A study of Mus musculus with 12 samples.

Results

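Potassium channel genes were followed through the differentiation of ANS cells, adherent neural stem cells that were derived from mouse brain at E14.5 and grow as a monolayer. The genes were taken by name, as every symbol that starts with Kcn, without the non-coding Kcnq1ot1, and with at least 1 count in a library. This rule gave 87 of the 22609 genes in the count tables, while 7 further Kcn symbols (Kcna10, Kcne3, Kcnf1, Kcnh8, Kcnj15, Kcnk15, Kcnk16) stood at 0 counts in every library. By the usual classes these are 37 voltage-gated genes, 14 inward rectifiers, 12 two-pore genes, 8 calcium-activated genes and 16 genes of auxiliary subunits and regulators. The calcium-activated class holds the Kcnma1 and Kcnn genes and, by their relation to them, Kcnt1, Kcnt2 and Kcnu1, whose channels are gated by sodium or by pH.

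Polyadenylated RNA of 12 libraries was sequenced. At T0 (3 libraries), proliferating cells were kept in growth medium with 20 ng/ml FGF2, 20 ng/ml EGF and 1% N2. At T1 (3 libraries), cells had spent 2 days in medium D1, with 10 ng/ml FGF2, 2 ng/ml EGF, 0.5% N2 and B27. At T2 (4 libraries) and T3 (2 libraries), they were at 2 and at 10 days after the change to medium B, a mix of DMEM/F12 and Neurobasal with 10 ng/ml FGF2, 20 ng/ml BDNF, 0.5% N2 and B27 on laminin. The text of the study counts the 10 days of T3 from T2, the labels from the change of medium. No group carries a transgene or a mutation by the labels. Medium, time and replating move together between the time points and cannot be told apart, and the sources used here do not say whether the libraries of a time point came from separate derivations of the line.

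Potassium channels let K+ leave or enter the cell along its gradient and thereby set the resting potential and the shape and rate of action potentials. Voltage-gated channels open on depolarization, inward rectifiers hold the cell near the potassium equilibrium potential, two-pore channels carry a background leak, and calcium-activated channels couple the current to internal calcium. Neural progenitors and glia are known for a large leak and inward rectifier conductance, and neurons acquire delayed rectifier and A-type currents as they mature. Auxiliary subunits carry no pore and change the traffic or the gating of the pore-forming subunits.

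The pore of all these channels holds a short selectivity filter, and the bases that encode it show how the classes are built. The coding sequences (GENCODE vM1 on NCBIM37, the assembly that UCSC names mm9) were searched for a signature of 5 codons. It reads as serine or threonine, an aliphatic residue or threonine, glycine, an aromatic or aliphatic residue, and glycine. All 59 voltage-gated, inward rectifier and calcium-activated genes held the signature at 1 place, all 12 two-pore genes held it at 2, and the 16 auxiliary genes held none, against 2.16% of 22496 protein-coding genes with at least 1 match. The signatures of genes on which the results below turn are printed from the coding strand, with the 15 signature bases in capitals and 6 bases on each side.
Kcna2 (chr3:106908136-106908162, plus strand, exon 3): atgacaACTGTAGGCTATGGAgacatg
Kcnc4 (chr3:107250711-107250737, minus strand, exon 2): atgacaACGCTTGGCTATGGGgacatg
Kcng1 (chr2:168088135-168088161, minus strand, exon 3): atgacaACCGTAGGCTACGGAgacatg
Kcnd2 (chr6:21167400-21664147, plus strand, exons 1 and 2): atgacaACACTGGGGTATGGCgacatg
Kcnj10 (chr1:174299427-174299453, plus strand, exon 2): cagaccACCATCGGCTATGGCttccgc
Kcnk10 first pore (chr12:99728262-99734415, minus strand, exons 3 and 4): atcacaACCATAGGGTATGGGaatatt
Kcnk10 second pore (chr12:99678809-99678835, minus strand, exon 5): ctgaccACAGTAGGCTTTGGTgatttt
Kcnk5 first pore (chr14:20964331-20965735, minus strand, exons 2 and 3): atcaccACCATCGGTTATGGCaatgtg
Kcnk5 second pore (chr14:20963864-20963890, minus strand, exon 4): atctccACCATTGGCTTTGGGgacttt
Kcnma1 (chr14:24347629-24347655, minus strand, exon 7): atgtctACAGTGGGTTATGGGgacgtt
Kcnt1 (chr2:25749881-25749907, plus strand, exon 11): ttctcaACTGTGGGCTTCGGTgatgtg
The fourth codon of the signature read as tyrosine in 30 of 37 voltage-gated genes and as phenylalanine in the other 7, all of the Kcnh family. In the 12 two-pore genes it was tyrosine in 9 first pores and 0 second pores. An intron lay inside the signature of the first pore in all 12 two-pore genes, after its base 7, and after base 8 in Kcnd1, Kcnd2 and Kcnd3, but in none of the other signatures. The spans given for Kcnd2 and for the first pores of Kcnk10 and Kcnk5 therefore include that intron.

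Between 8910724 and 16631614 reads were counted on genes per library (median 12601169), of which 11422 to 21564 fell on the 87 genes. Values below are CPM, counts per 1000000 counts of a library after TMM normalisation, which corrects for differences in composition. At most 3 counts in every library were found for 28 of the 87 genes, which is too few to see a change in them. T0 replicate 3 stood apart from the other T0 libraries: the chi-square per Kcn gene, which sampling noise alone puts near 1, came to 1.62 for replicates 1 and 2 but to 67.7 and 72.1 when replicate 3 was set against either. Among 34 Kcn genes with at least 20 counts in a T0 library, replicate 3 was at or below 0.5 times the mean of replicates 1 and 2 in 12 and at or above 2 times that mean in 3, and replicates 1 and 2 differed 2-fold in 0. No pair of libraries of a time point was within sampling noise over all genes, and each was counted as a sample. The study calls its replicas independent, which a spread above sampling noise cannot show. All p-values measure the spread between these samples. T0 replicates 1 and 2 were the closest pair, at a chi-square of 3.28 per gene over all genes. At T0, fits without replicate 3 rest on the narrow spread of that pair, and their p-values may be too small. Calls that turn on T0 replicate 3 are given with and without it.

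The class sums moved in different directions. The summed level of the voltage-gated genes was 459 ± 7.16 CPM at T0 (SD, n = 3), 581 ± 85.6 at T1 (n = 3), 685 ± 122 at T2 (n = 4) and, at T3, 742 ± 122 (n = 2). All 9 libraries of T1, T2 and T3 lay above all T0 libraries. The inward rectifiers went the other way, from 231 ± 4.21 CPM at T0 to 193 ± 11, 186 ± 7 and 182 ± 9.88 CPM, again without overlap with T0. The 12 two-pore genes together reached only 10.1 ± 3.33 CPM at T0, and 10.3 ± 1.06, 14.4 ± 2.62 and 17.1 ± 1.24 CPM at T1, T2 and T3. Without T0 replicate 3, their T0 mean was 8.22 CPM.

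The calcium-activated sum was 98.5 ± 42.7 CPM at T0 and later 67.6 ± 11.1, 76.9 ± 4.55 and 68.9 ± 10.8 CPM, with 123, 123 and 49.2 CPM in T0 replicates 1, 2 and 3. The 9 later libraries, from 54.9 to 82.4 CPM, lay between replicate 3 and the other T0 libraries, so no direction can be read for this class. The auxiliary sum was 254 ± 50.4 CPM at T0 and 430 ± 0.864, 448 ± 24.3 and 348 ± 57.7 CPM at the later time points, with every later library above T0. A few genes made up each sum: Kcnj16 gave 81.5% of the inward rectifier sum at T0 and 80.1% at T3, Kcnip3 gave 60.7% of the auxiliary sum at T0 and 80.2% at T3, and Kcnn2 gave 70.2% of the calcium-activated sum at T0 and 40.3% at T3. Kcnd3 gave 32.4% of the voltage-gated sum at T0 and 37.4% at T3. Its mean went from 149 CPM at T0 to 241 at T2, and that of Kcnd2 from 28 to 187. The rise of the voltage-gated sum thus lay mostly in Kcnd2 and Kcnd3, while Kcnc1 and Kcnc4 had lower means at T2 than at T0. These sums carry no test, and in bulk RNA fewer cells of a type and less RNA per cell cannot be told apart.

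**Figure D1:**
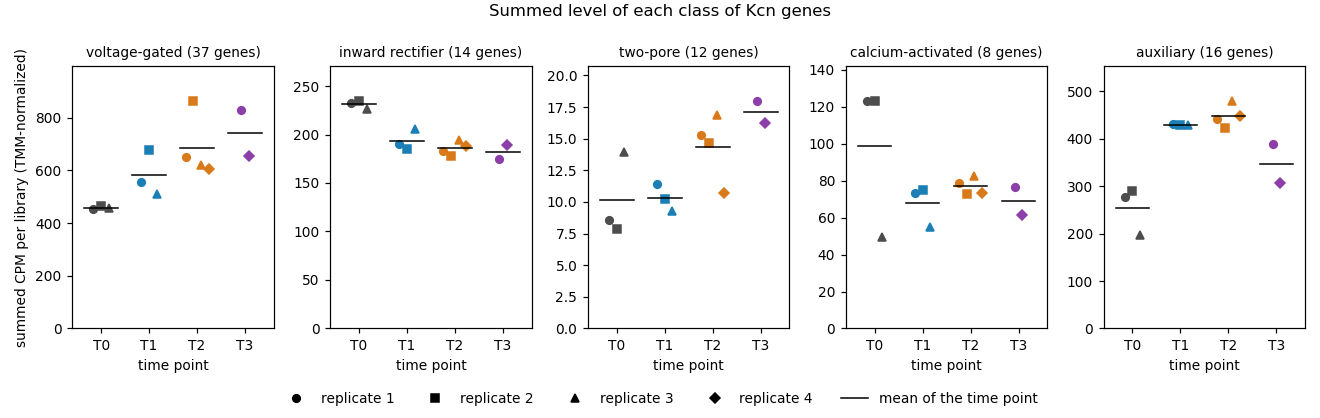
Summed CPM of each class of Kcn genes (y axis, from 0) by time point (x axis), with 1 point per library, the marker shape giving the replicate number and the line the mean. The voltage-gated sum was 459 CPM at T0 and 742 CPM at T3, the inward rectifier sum 231 and 182 CPM, and T0 replicate 3 lies far below the other T0 libraries in the calcium-activated class.

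Per gene, 38 of the 87 genes had enough counts for the test in T1 vs. T0, 40 in T2 vs. T0 and 44 in T3 vs. T0. A gene can pass the filter on low counts through the group where it is high, so the shares of called genes are descriptions of the genes tested. In T1 vs. T0, 8 Kcn genes were upregulated (21.1%, against 15.1% of 12364 genes tested) and 6 downregulated (15.8%, against 16.8%) at an edgeR adjusted p under 0.05. In T2 vs. T0, 11 were upregulated (27.5%, against 21.4% of 12607 genes) and 9 downregulated (22.5%, against 21.8%). In T3 vs. T0, 4 were upregulated (9.09%, against 3.31% of 12721 genes) and 2 downregulated (4.55%, against 1.41%). Kcn genes were thus called about as often as genes in general at T1 and T2. The median log2 fold change over the Kcn genes tested was 0.07, 0.39 and 0.51, beside -0.01, 0.00 and -0.01 over all genes tested. The comparisons share the T0 libraries.

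Across all 4 time points, 25 of 45 Kcn genes tested differed (55.6%, against 41.8% of 12952 genes). By class these were 13 of 18 voltage-gated, 3 of 7 inward rectifier, 3 of 6 two-pore, 4 of 7 calcium-activated and 2 of 7 auxiliary genes. Voltage-gated genes had median log2 fold changes of 0.60, 0.70 and 0.86 in T1, T2 and T3 vs. T0, and inward rectifiers of -0.30, -0.25 and -0.11.

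The firmness of the calls differed between the time points. Of the 14 calls at T1, 6 held with any 1 library left out (Kcnc1, Kcnc4, Kcnh4, Kcnk10, Kcnk5, Kcnq5). Without T1 replicate 1, and likewise without T1 replicate 2, 3 Kcn genes were called higher and 4 lower at T1, and without T0 replicate 3 the counts were 10 and 9. Of the 20 calls at T2, 15 held with any 1 library left out. Of the 6 calls at T3, where only 2 libraries stand against 3, 0 held: the number of Kcn genes called was 0 without T0 replicate 1, T0 replicate 2, T3 replicate 1 or T3 replicate 4, and without T0 replicate 3 it was 9 higher and 5 lower. The genes that passed only without T0 replicate 3 were Kcna2, Kcnd2, Kcnh4, Kcnh7, Kcnj10, Kcnk1, Kcnn2 and Kcnq3 at T3, Kcnn2 and Kcnh6 at T2, and Kcnj10, Kcnj16, Kcnma1, Kcnn2 and Kcnq3 at T1, and Kcnn4 at T2 passed only with it. DESeq2 called 12, 14 and 9 Kcn genes higher and 9, 9 and 3 lower at T1, T2 and T3.

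**Figure D2:**
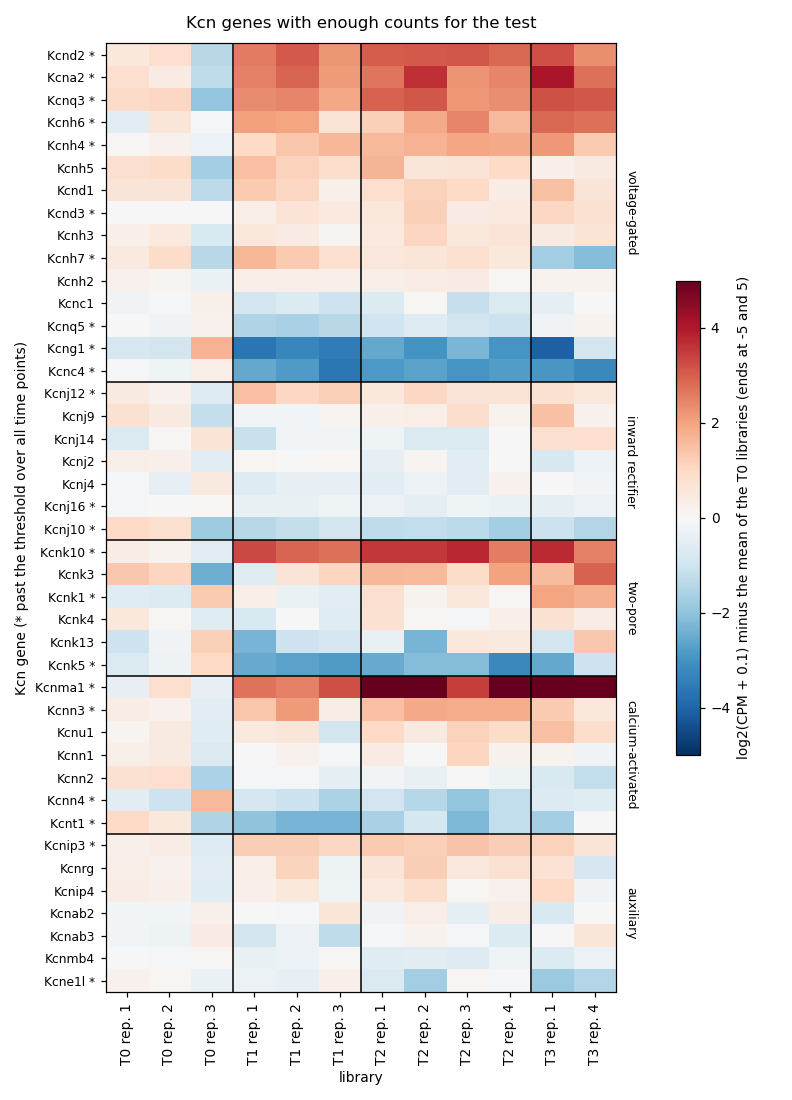
Heat map of 42 of the 45 Kcn genes with enough counts for the test over all time points (rows, by class) in the 12 libraries (columns), as log2(CPM + 0.1) minus the mean of the T0 libraries, with the colours ending at -5 and 5 and an asterisk on the 22 of them past the threshold. Kcnma1, Kcnk10, Kcna2 and Kcnd2 are high and Kcnc4, Kcnk5 and Kcng1 low in the later libraries, and the T0 replicate 3 column departs from the other T0 columns.

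Among voltage-gated genes, Kcnd2 and Kcnd3 of the A-type Kv4 family were upregulated, while their relative Kcnd1, with 1.61 ± 0.968 CPM at T0 and 2.56 ± 0.584 at T2, was tested and not called at any time point. Kcnd2 (chromosome 6, 21165503 to 21679805, mm9), which encodes Kv4.2, had 33.5, 41.5 and 8.89 CPM in the T0 libraries, 142, 193 and 106 at T1, 188, 194, 199 and 168 at T2, and 218 and 118 at T3. Every later library lay above every T0 library. In log2 fold change ± SE, T1 vs. T0 gave 2.39 ± 0.53 (adjusted p = 0.016 in edgeR), T2 vs. T0 gave 2.76 ± 0.44 (adjusted p = 0.0017 in edgeR) and T3 vs. T0 gave 2.60 ± 0.63 (adjusted p = 0.073 in edgeR). Without T0 replicate 3 these values were 1.97, 2.34 and 2.18, and the T3 value then passed (adjusted p = 0.018 in edgeR). Its T1 call was lost without T1 replicate 1 or 2.

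Kcnd3 (chromosome 3, 105244513 to 105476920), which encodes Kv4.3, moved less but was called at every later time point. It had 147, 147 and 152 CPM at T0, 187, 237 and 208 at T1, 222, 337, 198 and 208 at T2, and 302 and 253 at T3, without overlap with T0. Its log2 fold changes ± SE were 0.50 ± 0.12, 0.71 ± 0.19 and 0.92 ± 0.15, at adjusted p values of 0.021, 0.016 and 0.035 in edgeR. With 1 library left out, the T1 call held in 2 of 6 fits, the T2 call in 7 of 7 and the T3 call in 1 of 5. Within each library, which needs no scaling between libraries, the ratio of Kcnd2 to Kcnd3 counts was 0.0585 to 0.282 at T0, 0.51 to 0.816 at T1, 0.575 to 1.01 at T2 and 0.466 to 0.721 at T3, so that the later libraries again stood above those of T0. Exons of Kcnd3 share 1.72% of their bases with a transcript on the opposite strand, and the TruSeq v2 kit does not mark strand.

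Kcna2 (chromosome 3, 106904485 to 106909797), the gene of the axonal delayed rectifier Kv1.2, had 3.9, 2.93 and 0.846 CPM at T0, 12.8, 17 and 9.82 at T1, 14.1, 28.4, 10.7 and 12.2 at T2, and 37.8 and 15.1 at T3. All later libraries exceeded the T0 libraries, and the T3 libraries differed from each other by more than those of T1. It was upregulated by 2.36 ± 0.50 on the log2 scale (± SE) in T1 vs. T0 and by 2.69 ± 0.53 in T2 vs. T0, at adjusted p values of 0.013 and 0.0044 in edgeR. At T3 its value of 3.38 ± 0.67 just missed the threshold, at an adjusted p of 0.051 in edgeR, and without T0 replicate 3 it was 2.97 at an adjusted p of 0.024. The T1 call was lost without T1 replicate 1 or 2.

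Other voltage-gated genes with higher levels included Kcnh4 and Kcnq3. Kcnh4, which encodes Kv12.3, rose from 2.61 ± 0.45 to 6.83 ± 1.55 and 9.33 ± 1.08 CPM at T1 and T2. Kcnq3, which encodes a subunit of the M-current that damps repetitive firing, rose from 0.842 ± 0.669 CPM at T0 to 4.24 ± 1.37 at T2, which is 2.33 ± 0.61 on the log2 scale (± SE, adjusted p = 0.016 in edgeR). T0 replicate 3 was again low, with 1 count beside 16 and 18 in replicates 1 and 2, and the fold change without it was 1.78. Kcnh6 was called at T3 only, where it was tested, with 0.165 ± 0.104 CPM at T0 and 1.69 ± 0.102 at T3.

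The downregulated voltage-gated genes were led by Kcnc4 and Kcng1. Kcnc4 (chromosome 3, 107241221 to 107261816), which encodes Kv3.4, fell from 33.2, 31.1 and 45 CPM at T0 to 2.87 to 6.03 CPM at T1, 4.55 to 5.55 at T2 and 3.77 to 4.69 at T3. Its groups were far apart at every time point. In log2 fold change ± SE this was -3.00 ± 0.30, -2.84 ± 0.17 and -3.08 ± 0.28, at adjusted p values of 0.00093, 4.7e-05 and 0.014 in edgeR, and leaving out T0 replicate 3 gave -2.84, -2.65 and -2.90. Kcnc1, the gene of Kv3.1, was called only at T1, at 76 ± 9.59 CPM against 140 ± 21.1 at T0. In each library the ratio of Kcnc4 to Kcnc1 counts was 0.233 to 0.275 at T0 and 0.0273 to 0.0821 later.

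Kcng1 (chromosome 2, 168085617 to 168107236) encodes a silent subunit that forms no channel alone and assembles with subunits of another family. Its count was 33, 33 and 210 in T0 replicates 1, 2 and 3, 3 to 5 at T1, 5 to 9 at T2, and 2 and 21 in T3 replicates 1 and 4. Every later library lay below the T0 libraries in CPM, but T3 replicate 4, at 2.26 CPM, only just below T0 replicate 2, at 2.3 CPM. T0 replicate 3 set the size of the fold change: the T2 value was -3.40 ± 0.74 with this library (adjusted p = 0.0071 in edgeR) and -1.96 without it. The T1 call was lost when any T1 library was left out, and T3 vs. T0 was not called (adjusted p = 0.29 in edgeR).

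Kcnq5 (chromosome 1, 21388484 to 21952611), another M-current gene, fell and came back. It had 12.6, 11.5 and 14.8 CPM at T0, 4.48, 4.18 and 4.94 at T1, 6.4, 8.24, 6.83 and 6.02 at T2, and 11.6 and 14.8 at T3. The T1 and T2 libraries lay below all T0 libraries, and those of T3 overlapped with them. Against T0 the log2 fold changes ± SE were -1.52 ± 0.19, -0.90 ± 0.18 and, at T3, 0.03 ± 0.24, at adjusted p values of 0.0019, 0.0046 and 0.94 in edgeR. The step from T2 to T3, 0.93 ± 0.21, was short of the threshold in edgeR (adjusted p = 0.068) and past it in DESeq2.

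**Figure D3:**
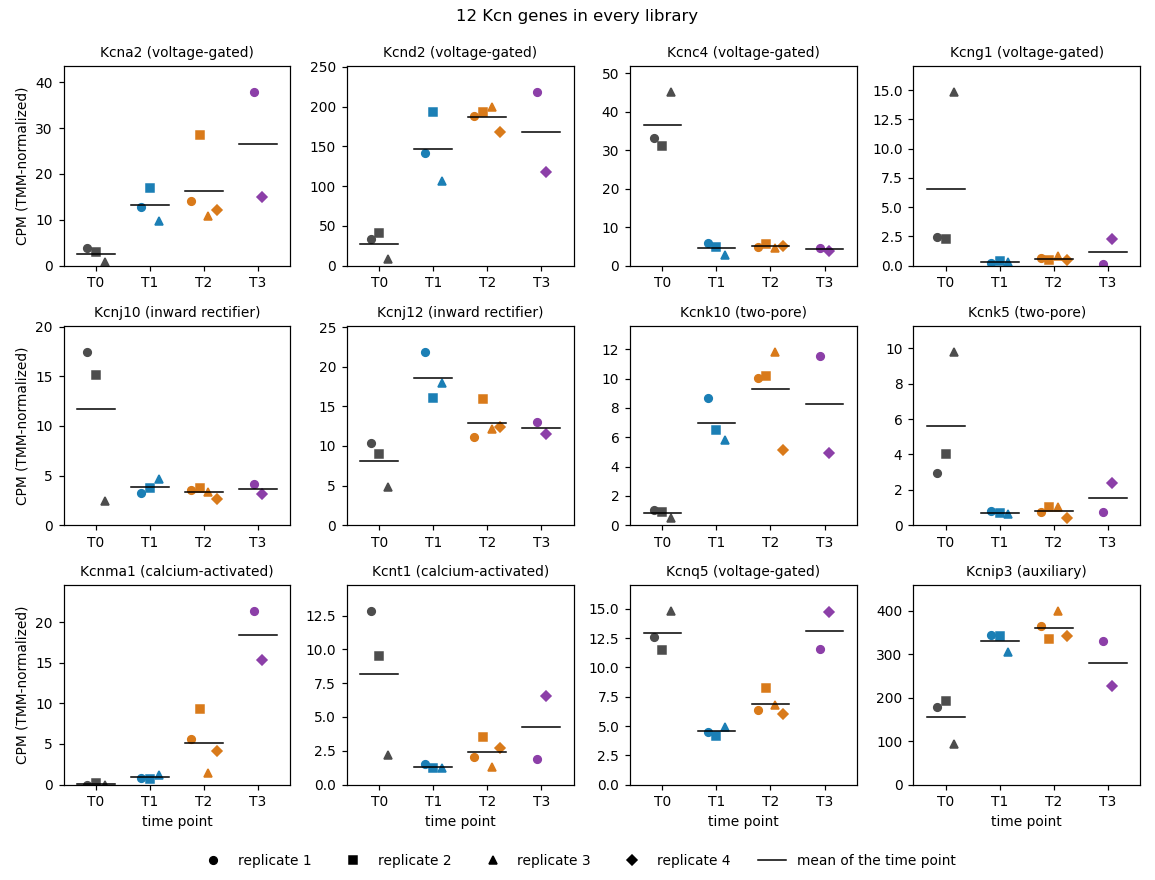
CPM (y axes, each from 0) of 12 Kcn genes in every library by time point (x axes), with the marker shape giving the replicate number and the line the mean. Kcnd2, Kcna2, Kcnk10 and Kcnip3 have all later libraries above T0, Kcnc4, Kcng1 and Kcnk5 all below, and Kcnq5 is at 13 CPM at T0, 4.54 at T1 and 13.2 at T3.

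Of the inward rectifiers, Kcnj16 (chromosome 11, 110829347 to 110889282) was the most abundant. It encodes Kir5.1, which assembles with Kir4.1 in glia. It had 179, 187 and 199 CPM at T0, 145, 145 and 162 at T1, 136 to 162 at T2, and at T3 137 and 154, all below T0. The change was small, with -0.31 ± 0.10 on the log2 scale at T2 (adjusted p = 0.033 in edgeR) and values of -0.33 and -0.36 at T1 and T3 that did not pass the threshold (edgeR adjusted p = 0.056 and 0.2), of which the T1 value was -0.28 and past it without T0 replicate 3 (adjusted p = 0.021 in edgeR). The T2 call held in 2 of 7 fits with 1 library left out.

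Kcnj10 (chromosome 1, 174271341 to 174304216), the gene of Kir4.1 itself, had 17.5 and 15.1 CPM in T0 replicates 1 and 2, 2.47 in T0 replicate 3, and 2.64 to 4.63 CPM in all later libraries. T0 replicate 3 thus lay below every later library. In T2 vs. T0 the log2 fold change was -1.81 ± 0.55 (adjusted p = 0.028 in edgeR), and without T0 replicate 3 it was -2.30 (adjusted p = 5.9e-06 in edgeR). The T2 call was lost in the other 6 of the 7 fits with 1 library left out. At T1 the value of -1.58 ± 0.64 was not past the threshold with all libraries (edgeR adjusted p = 0.099) and -2.05 without replicate 3 was.

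Kcnj12 (chromosome 11, 60836066 to 60884633), which encodes the strong rectifier Kir2.2, was the upregulated member of this class. It rose from 10.4, 9 and 4.87 CPM at T0 to 21.9, 16.1 and 17.9 at T1, and stood at 11.1 to 15.9 CPM at T2 and 11.5 to 13.1 at T3, above T0 throughout. The T1 change was 1.20 ± 0.29 on the log2 scale (adjusted p = 0.023 in edgeR), and was lost when any T1 library was left out. The T2 value of 0.69 did not pass the threshold (edgeR adjusted p = 0.068). Its relatives Kcnj2 and Kcnj4 had 12.6 ± 3.81 and 7.24 ± 2.32 CPM at T0 and 8.43 ± 2.09 and 6.61 ± 0.366 CPM at T3, with no call.

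The two-pore genes were low, and a pair of them moved in opposite directions. Kcnk10 (chromosome 12, 99672204 to 99816150), the gene of the stretch- and lipid-sensitive leak channel TREK-2, had 14, 13 and 7 counts at T0, 87 to 101 at T1, 83 to 130 at T2, and at T3 138 and 46. The mean of 0.817 ± 0.289 CPM at T0 was followed by 7 ± 1.52, 9.29 ± 2.91 and 8.25 ± 4.67 CPM, without overlap with T0. These are log2 fold changes ± SE of 3.08 ± 0.34, 3.51 ± 0.40 and 3.34 ± 0.53, at adjusted p values of 0.0013, 0.00032 and 0.033 in edgeR. The T1 and T2 calls held in every fit with 1 library left out, whereas the T3 call was lost without T0 replicate 1 or 2 or either T3 library.

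Kcnk5 (chromosome 14, 20959280 to 21001004), the gene of the acid-sensitive leak channel TASK-2, had 39, 58 and 139 counts at T0, 9, 9 and 10 at T1, 7 to 11 at T2, and at T3 9 and 22. All later libraries were below the T0 libraries in CPM. The T1 and T2 values were -3.03 ± 0.54 and -2.81 ± 0.50 on the log2 scale (± SE), at adjusted p values of 0.0073 and 0.0027 in edgeR, and -2.35 and -2.15 once T0 replicate 3 was left out. The counts of Kcnk10 were 0.0504 to 0.359 times those of Kcnk5 in the T0 libraries, 9.5 to 11.2 times at T1, 10 to 13.1 times at T2, and 15.3 and 2.09 times in T3 replicates 1 and 4. The more abundant of these genes was thus Kcnk5 in all T0 libraries and Kcnk10 in all later ones. Kcnk1 (TWIK-1) differed over the time points (edgeR adjusted p = 0.038), with 0.521 ± 0.526 CPM at T0 and 1.73 ± 0.161 at T3, but T3 vs. T0 alone did not pass (log2 fold change 1.73, adjusted p = 0.23 in edgeR). T0 replicate 3 had 1.13 CPM beside 0.225 and 0.209 in replicates 1 and 2, and without it the T3 value was 2.96 (adjusted p = 0.019 in edgeR).

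The calcium-activated genes held the largest rise of all Kcn genes. Kcnma1 (chromosome 14, 24117983 to 24622526) encodes the pore of the large-conductance BK channel, which is opened by calcium and voltage together. Its counts were 0, 2 and 0 at T0, 9, 9 and 19 at T1, 59, 100, 15 and 68 at T2, and 255 and 143 at T3. The time points did not overlap, although T2 replicate 3, at 1.36 CPM, lay near the 0.672 to 1.16 CPM of T1. Against 3 counts in each T0 library, the mean of the T1 libraries is at least 4.04-fold higher, that of T2 at least 23.7-fold and that of T3 at least 85.3-fold. The edgeR adjusted p was 0.0014 at T2 and 0.014 at T3. At T1 the gene had too few counts for the edgeR test, and DESeq2 called it (adjusted p = 0.0052 in DESeq2). From T1 to T2 (log2 fold change 2.52 ± 0.57) and from T2 to T3 (1.85 ± 0.50) the edgeR adjusted p was 0.093 and 0.11, while DESeq2 called both steps.

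Kcnn3, an SK channel gene, rose from 1.92 ± 0.636 CPM at T0 to 6.61 ± 0.78 at T2, by 1.80 ± 0.28 on the log2 scale (adjusted p = 0.0014 in edgeR). Kcnt1 (chromosome 2, 25719315 to 25773793), which encodes a sodium-activated channel, had 12.8, 9.49 and 2.19 CPM at T0, 1.2 to 1.55 at T1, 1.27 to 3.52 at T2, and 1.93 and 6.57 in T3 replicates 1 and 4. Only the T1 libraries lay below all T0 libraries. The T1 and T2 values were -2.63 ± 0.63 and -1.75 ± 0.56 on the log2 scale (± SE), at adjusted p values of 0.02 and 0.033 in edgeR, and -3.08 and -2.20 once T0 replicate 3 was left out. The T1 call was lost when any T1 library was left out, and the T2 call held in 2 of 7 fits with 1 library left out.

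For the other abundant genes of this class T0 replicate 3 decided the picture. Kcnn4, the gene of the intermediate-conductance channel KCa3.1, had 4.95, 3.56 and 22.8 CPM in T0 replicates 1, 2 and 3, and 1.82 to 3.73 at T2. Its T2 call (log2 fold change -1.86 ± 0.62, adjusted p = 0.04 in edgeR) ended without T0 replicate 3, where the value was -0.56 (edgeR adjusted p = 0.12). The call was also lost when any T2 library was left out, and held in 2 of 7 fits with 1 library left out. Kcnn2, the SK gene with the highest level, had 93.1, 96.4 and 18.1 CPM at T0, 40.4 to 53 at T1, 41.8 to 53.3 at T2, and at T3 32.2 and 23.3, and was not called in any comparison with all libraries. Without T0 replicate 3 its log2 fold change was -0.98 at T1 and -1.75 at T3, past the threshold.

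**Figure D4:**
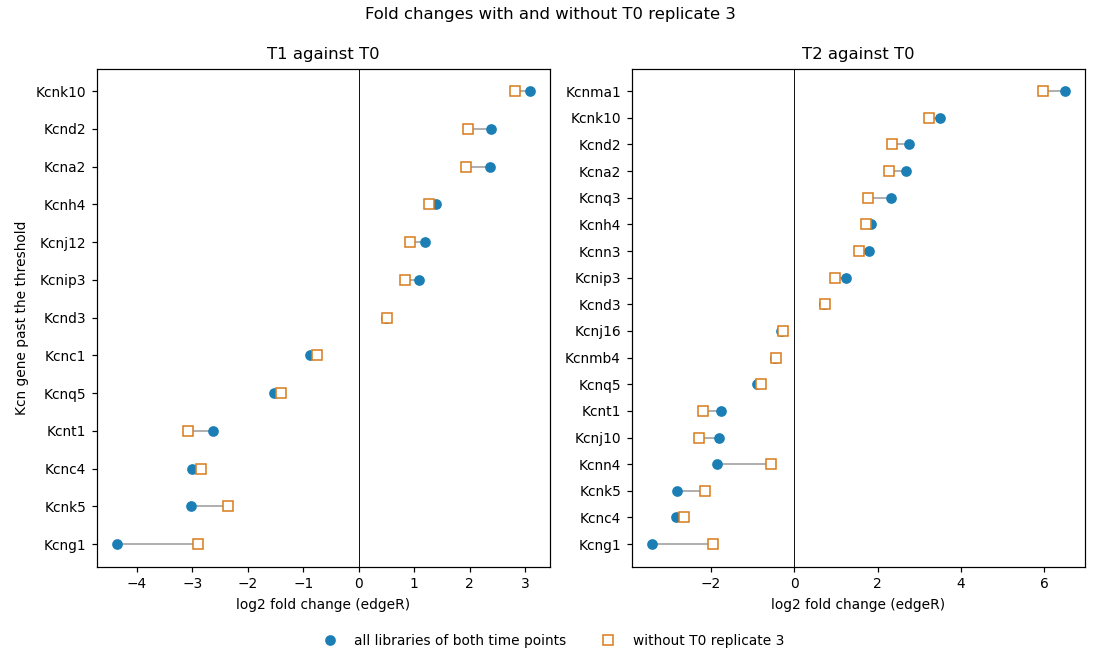
Log2 fold changes (x axes) of 13 of the 14 Kcn genes called in T1 vs. T0 and 18 of the 20 called in T2 vs. T0 (rows), fitted by edgeR with all libraries (filled circles) and without T0 replicate 3 (open squares). No gene changes side, Kcng1 goes from -4.35 to -2.89 at T1, and Kcnn4 from -1.86 to -0.56 at T2.

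Of the auxiliary genes, Kcnip3 had the highest level, and its mean FPKM was above those of all other Kcn genes at T1 and T2. Kcnip3 (chromosome 2, 127282234 to 127347830) encodes KChIP3, a calcium-binding subunit of Kv4 channels that is also known as the repressor DREAM. It had 177, 193 and 93.2 CPM at T0, 344, 342 and 305 at T1, 334 to 399 at T2, and at T3 331 and 227, without overlap with T0. The changes from T0 were 1.09 ± 0.26, 1.24 ± 0.23 and 0.87 ± 0.35 on the log2 scale (± SE), at adjusted p values of 0.021, 0.0037 and 0.19 in edgeR. The T1 call was lost when any T1 library was left out. Its rise ran beside that of Kcnd2 and Kcnd3, whose products it binds.

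Kcnmb4 (chromosome 10, 115854917 to 115912375), the neuronal beta subunit of the BK channel, fell while Kcnma1 rose. It had 20.9 to 23.1 CPM at T0 and 13.8 to 19 at T2, a change of -0.47 ± 0.15 on the log2 scale (adjusted p = 0.032 in edgeR) that held in 2 of 7 fits with 1 library left out. Transcripts on the opposite strand overlap 10.7% and 20.9% of its exon bases. In T3 replicate 1 the counts of Kcnma1 were 1.56 times those of Kcnmb4, in T3 replicate 4 they were 0.861 times, and in the T0 libraries at most 0.00669 times. Kcne1l, now named Kcne5, was called at T3 with 28.2 ± 5.14 CPM at T0 and 8.82 ± 1.69 at T3, a change of -1.66 ± 0.27 on the log2 scale (adjusted p = 0.034 in edgeR). In Kcnab2, the gene of a Kv1 beta subunit, the values were 41.9 ± 7.2 CPM at T0 and 33 ± 11.8 at T3, with no call.

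Levels of different genes are compared per transcript length, by the FPKM values that the authors deposited. The mean over all libraries was above 1 FPKM in 23 Kcn genes and above 10 in 10. The order at T0 was Kcnip3 at 44.2 ± 12.3 FPKM, Kcnj16 at 40.5 ± 3.41, Kcnn2 at 37.1 ± 22 and Kcnmb4 at 33 ± 3.6. The SDs of these neighbours overlap, and no order among them can be read. Kcnd3 followed with 24.1 ± 5.66 FPKM, and Kcnd2 was at 4.16 ± 2.46.

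At T2, Kcnip3 was the highest at 92.9 ± 9.03 FPKM. Below it came Kcnj16 at 30.3 ± 1.44, Kcnd3 at 28.6 ± 8.05, Kcnd2 at 26.2 ± 2.63, Kcnn2 at 25.8 ± 3.66 and Kcnmb4 at 20 ± 3.41, where the SDs of neighbours in this order overlap. Kcnd2 had thus moved from far below Kcnd3 to a like level. The most abundant two-pore gene was Kcnk5 at T0, at 1.28 ± 0.946 FPKM, and Kcnk10 at T2, at 3.67 ± 1.03 FPKM, and Kcnk4 stayed at or below 0.321 ± 0.0546. Kcnh2, the gene of the hERG-type channel, had means of 11.5 to 14.4 FPKM over the time points, with no call.

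**Figure D5:**
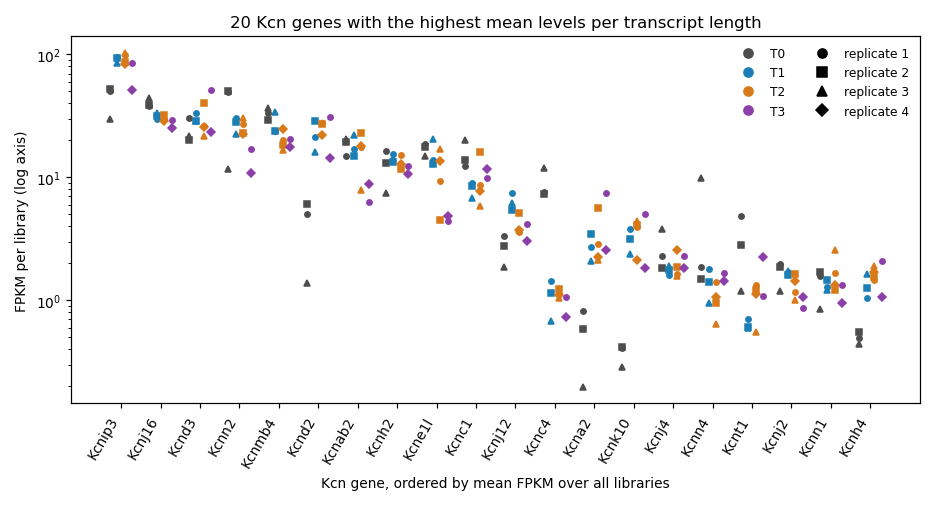
FPKM per library (y axis, log scale) of the 20 Kcn genes with the highest means over all libraries among those reported here (x axis), with colours for the time points and marker shapes for the replicates. Kcnip3 has 44.2 FPKM at T0, within the spread of Kcnj16 and Kcnn2, and 92.9 at T2, and Kcnd2, Kcna2 and Kcnk10 have their T0 libraries below all later ones.

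Between later time points few changes passed the threshold. In T2 vs. T1, 0 of 38 Kcn genes were called by edgeR (0.63% of 12382 genes), with 8 at an unadjusted p under 0.05, and DESeq2 called 1, Kcnma1. In T3 vs. T2, 1 of 42 was called (1.19% of 12599 genes), with 12 at an unadjusted p under 0.05, and DESeq2 called 5. The gene called was Kcnh7, which encodes an ERG channel subunit. It had 3.9, 5.23 and 0.987 CPM at T0, 5 to 8.96 at T1, 4.06 to 4.91 at T2, and at T3 0.754 and 0.538, so that the T3 libraries lay below all others. Its log2 fold change from T2 to T3 was -2.71 ± 0.33 (adjusted p = 0.021 in edgeR), and the call was lost when any 1 of the T2 libraries was left out. Exons of Kcnh7 share 4.57% of their bases with the protein-coding gene Gca on the opposite strand.

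A low gene left out of the edgeR tests by the filter on low counts, and chosen after its values were seen, was Kcns2. Like Kcng1, it is a silent subunit gene. It had 0, 1 and 0 counts at T0, 8, 8 and 8 at T1, 7 to 13 at T2, and at T3 2 and 0. Against 3 counts per T0 library the mean is at least 2.75-fold higher at T1 and 3.79-fold at T2. DESeq2 called Kcns2 at T1 and T2, with log2 fold changes of 4.51 and 4.99 (adjusted p = 0.0085 and 0.00077 in DESeq2). At T3 it was back at or under 3 counts.

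Partners of potassium channels were examined from a list of 39 genes, of which 26, 27 and 29 were tested in T1, T2 and T3 vs. T0. In these, 4, 10 and 4 were upregulated, where the share over all genes was 15.1%, 21.4% and 3.31%, and 5, 5 and 0 were downregulated, where it was 16.8%, 21.8% and 1.41%. Their median change was 0.18, 0.27 and 0.15 on the log2 scale. Dpp6, a membrane partner of Kv4 channels, had the largest rise, from 0.313 ± 0.158 CPM at T0 to 5.31 ± 2.29, 24.8 ± 4.84 and 20 ± 21.6 CPM, with log2 fold changes of 4.06, 6.29 and 5.98 (edgeR adjusted p = 0.0024, 3.7e-05 and 0.035). Its T3 libraries were far apart, at 35.3 and 4.74 CPM. Of the pore-forming and auxiliary genes of the Kv4 channel complex, Kcnd2, Kcnd3, Kcnip3 and Dpp6 were called upregulated at T1 and at T2. Kcnd1 and Kcnip4 were tested and not called, and Kcnip1, Kcnip2 and Dpp10 were too low for the test.

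The pacemaker channel genes Hcn2 and Hcn3 rose from 3.17 ± 0.427 and 5.95 ± 0.982 CPM at T0 to 10.4 ± 2.32 and 16 ± 2.13 CPM at T2 (edgeR adjusted p = 0.00087 and 0.0006). Adam22, an Lgi receptor bound to Kv1 complexes, rose from 23 ± 8.87 to 68.6 ± 9.93 CPM at T2, while Lgi1 and Cntnap2 were at 3 counts or fewer in every library. The scaffold genes Ank2 and Dlg4 fell, from 680 ± 107 and 199 ± 17.5 CPM at T0 to 311 ± 39.7 and 113 ± 12.5 at T1 (edgeR adjusted p = 0.0034 and 0.0047), whereas Ank3 rose from 22.1 ± 4.02 at T0 to 68.7 ± 2.4 CPM at T3 (edgeR adjusted p = 0.02).

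Markers of cell types moved beside these genes, and their part in the results was not tested. The shares of all genes called, given above, apply to these lists too. Of 7 neuronal markers found in the tables (Map2 under its older name Mtap2), of those tested all 4 at T1, all 5 at T2 and 2 of 6 at T3 were upregulated, and the summed level of these genes was 892 to 962 CPM at T0, 2027 to 2569 at T1, 1985 to 2536 at T2 and 1673 to 2678 at T3. Mtap2 alone made up most of that sum, with means of 900 CPM at T0 and 1903 at T1, while Dcx, a gene of young neurons, had means of 5.57 and 218 CPM. The T3 libraries are labelled GAD+, and of the 3 GABAergic markers Gad1 was upregulated at every later time point, while Gad2 and Slc32a1 were at 3 counts or fewer in every library. Progenitor markers summed to 5487 to 6515 CPM at T0 and 3723 to 4790 later, with 2 of 5 downregulated at T1, 3 at T2 and 1 at T3. Vim was the highest of them, with a T0 mean of 3311 CPM. Mki67 fell from a T0 mean of 679 CPM to 56.6, then had 77.4 and 254.5 CPM. Top2a fell from 466 to 36.5 CPM, then had 52.6 and 160 CPM. Their log2 fold changes in T3 vs. T2, 1.72 and 1.61, were short of the threshold (edgeR adjusted p = 0.054 and 0.055). Nes and Sox2 were not called in any comparison with T0. Oligodendrocyte lineage genes summed to 3184 to 3621 CPM at T0 and 3964 to 5961 later, mostly as Olig1 and Olig2. Of those tested, Pdgfra was upregulated at T1, from 20.3 to 145 CPM, and Pdgfra, Olig1 and Mog at T2, and edgeR called none of 7 at T3. Sox10, a low gene of this list, went the other way, from a T0 mean of 2.24 CPM to later means of 0.379, 0.465 and 0.221 CPM. Every later library lay below the T0 libraries, and the gene differed over the time points (edgeR adjusted p = 0.0061). Mbp, with a T0 mean of 0.648 CPM, was not called in any comparison with T0. Astrocyte genes summed to 2782 to 4538 CPM at T0 and 2590 to 4052 later, with 2 of 8 (Aldh1l1 and Gja1) downregulated at T2. T0 replicate 3, the library in which Kcnj10 and Kcnn2 were low, had less of all 8 of them than the other T0 libraries, with 0.494 CPM of Gfap beside 147 and 150, and 7.69 CPM of Aqp4 beside 88 and 91.4. All 4 microglial markers and 4 of the 5 endothelial and pericyte markers had 3 counts or fewer in every library.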

How the data were processed

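RNA was extracted with Trizol, libraries were made with the TruSeq RNA v2 kit and sequenced on a HiScanSQ. The submitters' processing notes name CASAVA 1.8, TopHat2 2.0.6, Bowtie 0.12.7.0, HTSeq 0.6.0, DESeq2 1.0.0 and mm9. The authors deposited raw counts per gene for each library, and a table of FPKM values whose tool is not given in the sources used here. Entries that name no gene (reads on no gene were 13.3% to 24.1% of uniquely aligned reads) were left out. The strand setting of the counting is not given in the sources used here, and reads with several alignments were not counted, so close paralogs are uncertain.

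Counts were scaled by TMM, filtered with filterByExpr and tested on the libraries of each pair of time points with the quasi-likelihood test of edgeR 4.0.16 in R 4.3.3. P-values were adjusted over all genes tested by the method of Benjamini and Hochberg, with a threshold of 0.05. The SE is the log2 fold change divided by the root of its F statistic. Groups were mapped from the labels. DESeq2 1.42.0, other scaling, filter, pooled and paired fits, and fits without 1 library were alternatives. In T1 and T2 all 3 same-numbered pairs of libraries deviated together (r over 0.1), by the values and not by the labels. So did the differently numbered T1 replicate 3 and T2 replicate 4 (r = 0.37), and the main fits used no pairs. Scripts were tested on simulated data. Lower bounds of folds use 3 counts per T0 library.

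The genes, classes, partner and marker lists were chosen with earlier results of these data known. Named with statistics were genes past the threshold, with full values for at most the 3 largest changes of each class and further genes described after their values were seen, and with levels the 3 genes of each class with the highest FPKM. Some genes and sequences are not reported here. Positions come from the FPKM table (mm9), with starts counted from 1. Counts on genes were 8910724 to 16631614 per library, and bounds cover counting error only.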

Additional observations from a re-analysis of the deposited data

Results flagged for a closer look

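At T2, the only time point with enough libraries for this check, a library's gap to its nearest neighbour, as a share of the range of the group, was compared with Dixon's 95% critical value for 4 samples for the 45 genes tested and the 5 class sums. Chance alone gives about 1 such library in 20 groups. Of these 50 items, 2 passed. Kcnd3 had 337 CPM in T2 replicate 2, where the other T2 libraries had 198 to 222 CPM. Kcnn3 had 5.45 CPM in T2 replicate 1, where the others had 6.92 to 7.13 CPM. Kcnd3 was called at T2 in all 7 fits with 1 library left out, and so was Kcnn3.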

How the results depend on the processing

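Each count of called Kcn genes was recomputed under the alternatives. With 1 library left out, the genes higher at T1 ranged from 3 to 10 (8 with all libraries), those lower at T2 from 4 to 9 (9), those higher at T3 from 0 to 9 (4) and lower at T3 from 0 to 5 (2), those changed from T1 to T2 from 0 to 1 (0) and from T2 to T3 from 0 to 7 (1). In libraries numbered 1 and 2 only, 13 were higher and 12 lower at T1, and 1 changed from T1 to T2. DESeq2 gave 9 higher at T3, 1 from T1 to T2 and 5 from T2 to T3, and no filter on low counts gave 8, 1 and 5. One fit of all 12 libraries gave 13 higher and 5 lower at T3 and 0 from T2 to T3. RLE scaling moved the auxiliary sum at T1 to 428 CPM and the other sums by less than their SD. The cause of these moves was not tested. Same-numbered libraries correlated in their deviations with r from -0.152 to 0.403, and 6 of 13 pairs were over 0.1, so the numbers were not taken as pairs. Between T1 and T2 all 3 same-numbered pairs were over 0.1 (0.199, 0.341 and 0.166). The differently numbered T1 replicate 3 and T2 replicate 4 stood higher, at 0.37, so these values do not settle whether the numbers are pairs. From T1 to T2, 0 Kcn genes were called with the replicate number as a block, as without it. With the replicate number as a block, 3 Kcn genes were lower at T2 (9 without it), 0 changed from T2 to T3, and in one fit of all 12 libraries 12 were higher and 5 lower at T3. No called gene reversed its direction under any alternative that gave it a value. At T3, 2 libraries limit what can be called, and 28 genes at or under 3 counts are limited by depth.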
